A study of Mus musculus with 2 samples.

Results

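Acute phase serum proteins are plasma proteins that the liver makes and secretes, and whose output is known to rise during inflammation. The 10 genes described here were chosen by name: Saa1, Saa2 and Saa4 (serum amyloid A), Orm1 and Orm2 (orosomucoid), Hp (haptoglobin), Hpx (hemopexin), Apcs and Crp (pentraxins) and Lcn2 (lipocalin-2). They are 10 of the 20652 genes named on the array, and all 10 were among the 16346 genes measured, that is, genes whose probe was well above background on at least 1 array. Gene expression was measured in the liver of male mice in a fasting group and a feeding group, with the RNA of 3 mice pooled in each group and hybridised to 1 array per group. The fasting group had fasted for 16 h according to its description, and overnight for 14 to 16 h according to the protocol. The feeding group was fed ad libitum by its description and given food after a fast by the protocol. No drug or genetic change is given for either group; for its wild-type mice in general the study's methods name the C57BL/6J strain, a chow diet and an age of about 8 to 12 weeks. With 1 pool per group no difference below has a replicate check, and no p-value is given. The study set the pathways that respond to food beside those that respond to thyroid hormone (T3), which were not analysed here.

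In the acute phase response, interleukin-6 and interleukin-1 reach the hepatocyte from immune cells and act through their receptors on the transcription factors STAT3, NF-kB and C/EBP, which drive the genes of the secreted proteins. Glucocorticoids are known to strengthen this response. Serum amyloid A travels in blood on high density lipoprotein, orosomucoid binds drugs and other small molecules, haptoglobin binds free haemoglobin, hemopexin binds free haem, the pentraxins bind microbial and damaged-cell surfaces, and lipocalin-2 binds the iron carriers of bacteria. Saa4 is known as the constitutive member of the serum amyloid A family, and in mice Apcs (serum amyloid P component) rather than Crp is known as the major acute phase pentraxin.

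Upon feeding, Saa1 and Saa2 were 1.85-fold and 1.95-fold higher than upon fasting, while Saa4, which lies beside Saa1, was 1.93-fold lower. Apcs was 1.51-fold higher and Crp 1.35-fold lower. The other 5 genes, Orm1, Orm2, Hp, Hpx and Lcn2, differed by at most 0.14 on the log2 scale after quantile normalization, and by up to 0.35 with the arrays scaled by their medians. None of the 10 was past the 2-fold threshold of the study's methods, against 3.27% of the measured genes higher and 4.62% lower upon feeding, or 7.90% in either direction. At 1.5-fold, 4 of the 10 were past the threshold, 3 higher and 1 lower, against 21.1% of the measured genes. With normexp, a background correction that models signal and background together, 3 of the 10 were, and Apcs had a difference of 0.49 on the log2 scale. The share of all genes past 1.5-fold with normexp was not computed, so the 21.1% is not its comparison. At 2-fold, normexp called 527 genes over the whole array, against 1291 without it. The median difference of the 10 genes was 0.08 on the log2 scale, and that of all measured genes was 0.

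The sequences before the start of the 3 serum amyloid A genes are shown because Saa1 and Saa2 were higher and Saa4 was lower although the 3 genes lie side by side. Each run is the 250 bases upstream of the annotated start of the gene, read 5′ to 3′ on the strand of the gene, as RefSeq gives it for the mouse assembly GRCm38.p6. Capitals mark matches to TTNNGNAA on either strand, the core pattern bound by C/EBP factors. Saa1 lies on the minus strand (chr7:46742981-46743230), Saa2 on the plus strand (chr7:46751583-46751832) and Saa4 on the minus strand (chr7:46732604-46732853).
Saa1: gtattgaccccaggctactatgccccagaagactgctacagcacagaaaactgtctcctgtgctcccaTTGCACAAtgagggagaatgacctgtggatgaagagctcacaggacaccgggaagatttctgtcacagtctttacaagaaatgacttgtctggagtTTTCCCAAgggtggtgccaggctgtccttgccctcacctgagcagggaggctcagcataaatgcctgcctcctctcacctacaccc
Saa2: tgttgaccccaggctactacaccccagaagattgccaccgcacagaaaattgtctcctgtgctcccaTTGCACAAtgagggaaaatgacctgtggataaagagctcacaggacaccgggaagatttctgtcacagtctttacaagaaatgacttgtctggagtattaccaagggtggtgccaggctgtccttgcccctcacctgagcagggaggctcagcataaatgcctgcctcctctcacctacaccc
Saa4: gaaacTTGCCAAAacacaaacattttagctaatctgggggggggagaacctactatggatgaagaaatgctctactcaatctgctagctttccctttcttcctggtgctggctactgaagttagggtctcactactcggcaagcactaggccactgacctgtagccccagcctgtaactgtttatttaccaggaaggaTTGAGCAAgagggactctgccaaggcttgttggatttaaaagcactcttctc

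In a global alignment the upstream sequences of Saa1 and Saa2 were identical in 94.8% of columns, and those of Saa1 and Saa4 in 46.3%. Apcs and Crp, which are both pentraxins, gave 47.4% in the same kind of alignment. No pair from different families was aligned, so the identity of unrelated windows was not measured. Saa1 and Saa2 share the match TTGCACAA, which starts 182 bases before the start of Saa1 and 183 bases before that of Saa2. Saa1 has a further match, TTTCCCAA, 86 bases before its start. Saa4 has the matches TTGCCAAA and TTGAGCAA, 245 and 52 bases before its start, at positions unlike those of Saa1 and Saa2. The pattern was present in 36.8% of all 32851 upstream windows of the same length, so a match alone is common.

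Of the 10 genes, 8 had an upstream sequence in the RefSeq table, all except Orm1 and Hp, and 7 of the 8 held the C/EBP pattern. Apcs was the exception. Orm2 held it as TTGCGCAA, which reads the same on both strands, 120 bases before its start, and again 108 bases before it. The STAT pattern TTCNNNGAA was present in 7.02% of all windows and among the 8 genes only in Apcs, 244 bases before its start. The pattern CTGGGAA, an element through which interleukin-6 is known to act, was present in 9.10% of all windows and among the 8 only in Apcs, 129 and 52 bases before its start on the opposite strand. The consensus of NF-kB was present in 7.25% of all windows and in 0 of the 8. All 4 patterns were searched on both strands, and they are descriptions of these windows, not sites shown to be bound.

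**Figure D1:**
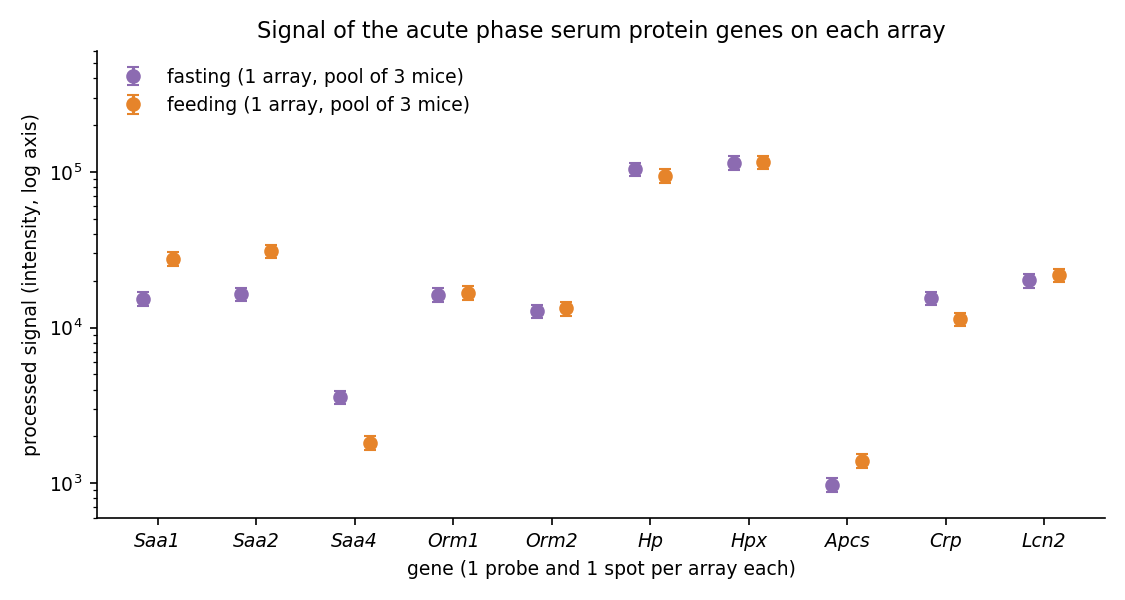
Processed signal (intensity after background subtraction, log axis) of each of the 10 genes on the fasting array and on the feeding array; bars are the error that the scanner software gives for the spot, about 10% of the signal. Saa1 and Saa2 lie higher and Saa4 lower on the feeding array, with bars that do not meet, while the bars of Orm1, Orm2, Hp, Hpx and Lcn2 overlap.

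Each of the 10 genes was read by 1 probe with 1 spot on each array. Every one of these spots was well above background, and 0 were saturated or outliers. The local background around them was between 21.0 and 43.5 on the fasting array and between 19.0 and 27.0 on the feeding array, while the lowest signal of the 10 genes was 982 and 1395, respectively. The scanner software gives each of these spots an error of about 10% of its signal, which makes the error of a difference 0.20 on the log2 scale. Probes spotted repeatedly on each array give a narrower spread, an SD of 0.10 for a difference between single spots among the brightest of 3 equal groups of genes and 0.14 among the middle group. Both errors cover the measurement on the array and not the spread between mice. In a liver extract, fewer cells of a type and less RNA per cell cannot be told apart.

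Saa1 and Saa2 encode the serum amyloid A proteins that rise in blood during inflammation. The processed signal of Saa1 (probe A_52_P318673) was 15343 ± 1534 upon fasting and 27627 ± 2763 upon feeding (software error, 1 array each). That of Saa2 (probe A_55_P1994807) was 16366 ± 1637 and 31034 ± 3103. Both genes were therefore brighter on the feeding array by more than the error of the spots. After quantile normalization, Saa1 was higher upon feeding by 0.89 ± 0.20 and Saa2 by 0.96 ± 0.20 on the log2 scale. Of all measured genes, 4.36% were higher upon feeding by more than Saa1 and 3.62% by more than Saa2.

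Saa4 encodes the serum amyloid A protein that is known to circulate without inflammation. Its processed signal (probe A_52_P404329) was 3577 ± 358 upon fasting and 1817 ± 182 upon feeding. This was the opposite order of the arrays to that of Saa1 and Saa2, and the difference was -0.95 ± 0.20 on the log2 scale. Of all measured genes, 5.16% were lower by more than Saa4, and 8.90% differed by more in either direction. The ratio of the Saa1 signal to the Saa4 signal within an array was 3.54-fold higher on the feeding array (1.83 ± 0.29 on the log2 scale). A common factor for all spots of an array cannot alter such a ratio, though quantile normalization can. The ratio of Saa2 to Saa4 was 3.73-fold higher, and that of Saa1 to Saa2 differed by 1.05-fold (-0.07 ± 0.29). Saa1 and Saa2 are near-identical copies and the probe sequences were not used here, so whether each probe also reads the other transcript was not tested. Saa3, the family member that macrophages and fat cells are known to make, had a signal of 954 upon fasting and 680 upon feeding, a difference of -0.38 on the log2 scale.

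**Figure D2:**
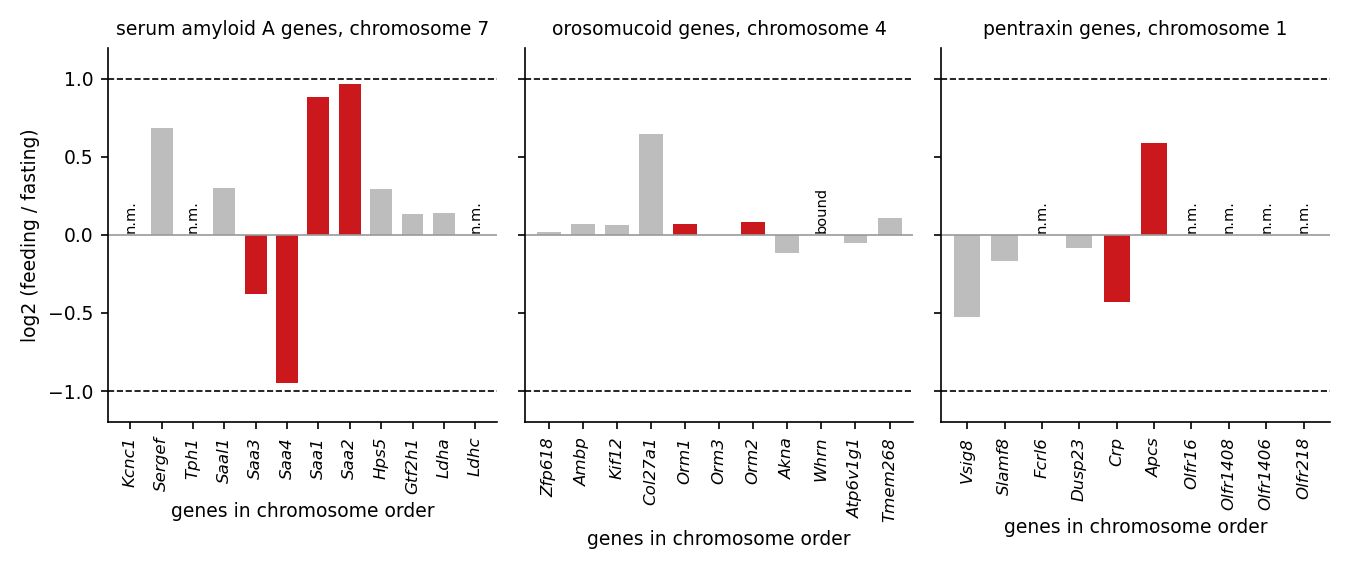
Log2 ratio of feeding to fasting (quantile normalized) for the genes around the serum amyloid A, orosomucoid and pentraxin genes, in chromosome order; red bars are genes of the family, grey bars other protein-coding genes, dashed lines the 2-fold threshold, n.m. genes not measured, and bound a gene not well above background on 1 array whose lower bound is 0. Saa3 and Saa4 lie below 0 and Saa1 and Saa2 above it, while the bars of the orosomucoid genes are close to 0.

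On chromosome 7 the RefSeq order of the family is Saa3, Saa4, Saa1 and Saa2, so that the 2 genes that were lower and the 2 that were higher upon feeding lie next to each other. The 5 measured genes among the 4 on each side of the family differed by 0.14 to 0.68 on the log2 scale, and 0 of them were past 2-fold.

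Orm1 and Orm2 encode orosomucoid, also called alpha-1-acid glycoprotein, an abundant plasma protein. The processed signal of Orm1 (probe A_51_P336325) was 16247 ± 1625 upon fasting and 16764 ± 1676 upon feeding. That of Orm2 (probe A_51_P141546) was 12756 ± 1276 and 13273 ± 1327. After quantile normalization the differences of 0.07 ± 0.20 and 0.08 ± 0.20 on the log2 scale were within the error of the spots, while scaled by the median they were 0.28 and 0.29 and beyond it. Under that scaling the brightest group of genes as a whole had a median of 0.21. The ratio of Orm1 to Orm2 within an array differed by 1.01-fold between the arrays (-0.01 ± 0.29). Orm3, the remaining gene of the family, which was added after its values were seen, had a signal of 1501 upon fasting and 1433 upon feeding. Orm1 and Orm2 are close copies as well, and the same was not tested for them.

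Hp and Hpx encode the scavengers of haemoglobin and of haem. The processed signal of Hp (probe A_55_P2048607) was 104019 ± 10402 upon fasting and 94388 ± 9439 upon feeding. That of Hpx (probe A_51_P325836) was 114488 ± 11449 and 115739 ± 11574. After quantile normalization the difference of Hp was -0.01 ± 0.20 and that of Hpx 0.09 ± 0.20 on the log2 scale, both within the error of the spots. Scaled by the median, the sign of Hp turned (0.09), and Hpx was at 0.25, beyond the error, beside a median of 0.21 for the brightest group of genes. Of all measured genes, 90.2% differed by more than Hp. Both lie at the bright end of the array, with 0.226% of genes brighter than Hp and 0.128% brighter than Hpx, where quantile normalization leaves little room for a gene to move. Before any scaling the differences were -0.14 and 0.02.

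Apcs and Crp, the pentraxins, lie next to each other on chromosome 1. The processed signal of Apcs (probe A_51_P354165) was 982 ± 98.3 upon fasting and 1395 ± 140 upon feeding, and that of Crp (probe A_55_P2127765) was 15411 ± 1541 and 11344 ± 1134. Apcs was therefore brighter and Crp dimmer on the feeding array. Apcs was higher upon feeding by 0.59 ± 0.20 and Crp was lower, at -0.43 ± 0.20, on the log2 scale. Of all measured genes, 20.7% differed in either direction by more than Apcs and 31.8% by more than Crp, so differences of this size were common between the arrays. The ratio of Apcs to Crp within an array was 1.93-fold higher on the feeding array (0.95 ± 0.29).

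Lcn2 encodes lipocalin-2, which limits the growth of bacteria by binding their iron carriers and which hepatocytes and neutrophils are known to make. Its processed signal (probe A_55_P2070869) was 20076 ± 2008 upon fasting and 21743 ± 2174 upon feeding. The difference of 0.14 ± 0.20 on the log2 scale was within the error of the spots after quantile normalization. Scaled by the median it was 0.35, beyond the error, beside a median of 0.21 for the brightest group of genes. Of all measured genes, 68.5% differed by more than Lcn2.

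**Figure D3:**
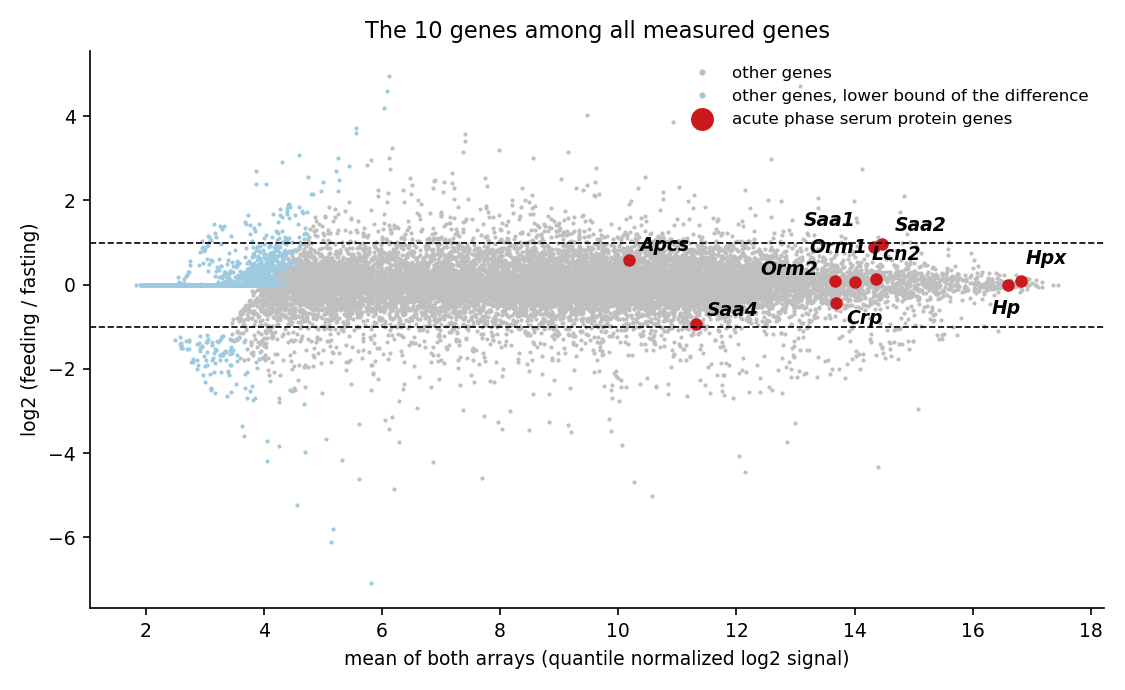
Log2 ratio of feeding to fasting against the mean quantile normalized log2 signal of both arrays for all 16346 measured genes, with the 10 acute phase serum protein genes in red and genes whose difference is a lower bound in blue; dashed lines mark 2-fold. All 10 lie inside the 2-fold lines, 9 of them in the brightest of 3 equal groups of genes.

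Of the 10 genes, 9 were in the brightest of 3 equal groups of the measured genes and Apcs was in the middle group. The way the 2 arrays are scaled matters for bright genes. Scaling by the median of each array moved the median difference of the brightest group from 0.01 to 0.21 and that of all genes from 0 to 0.09. Under that scaling Saa1 was 2.12-fold and Saa2 2.23-fold higher upon feeding, so that 2 of the 10 genes were past 2-fold, both higher, against 4.35% of the genes higher and 8.32% in either direction. Scaled by the 75th percentile, 1 of the 10, Saa2, was past 2-fold, against 8.01% of the genes in either direction. Under the median scaling Saa4 was 1.67-fold lower, Apcs 1.67-fold higher and Crp 1.15-fold lower. The difference of Crp was then -0.21 on the log2 scale, about the size of the error of 0.20. The median of the 10 genes was 0.29 under that scaling, beside the 0.21 of the brightest group. Saa1, Saa2, Saa4, Apcs and Crp kept their direction in all 6 alternatives that give single genes a value, as did Orm1, Orm2, Hpx and Lcn2. Hp kept it in 5 of 6. Some of these alternatives could not change the 10 genes, all of which were well above background on both arrays. These were the filter for such probes and the use of measured differences in place of lower bounds.

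**Figure D4:**
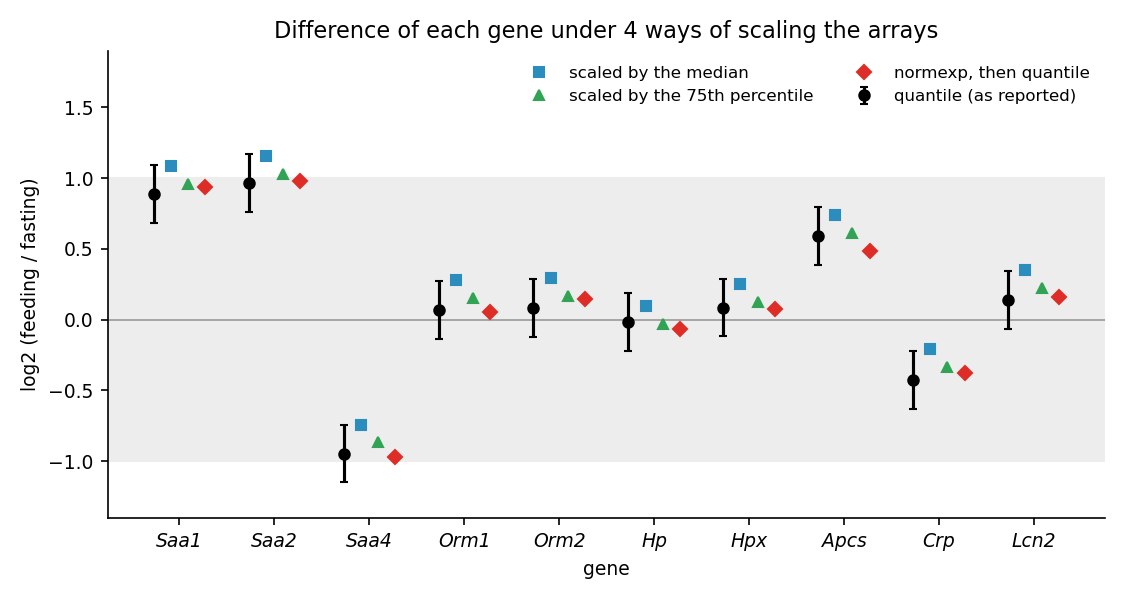
Log2 ratio of feeding to fasting of each of the 10 genes under quantile normalization (black, with the software error of the difference), scaling by the median or by the 75th percentile of each array, and normexp background correction followed by quantile normalization; the grey band spans less than 2-fold. Saa1 and Saa2 lie at the upper edge of the band and cross it when scaled by the median, Saa2 also when scaled by the 75th percentile.

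The genes that send the signal of the acute phase response to the liver were examined in the same way. Beside the counts of each list below, 3.27% of all measured genes were higher and 4.62% lower by 2-fold or more. The 15 cytokine ligands, such as interleukin-6 and interleukin-1, had a median difference of 0, and 0 of 15 were past 2-fold. Their signals were low, and all 15 together summed to 1503 upon fasting and 1332 upon feeding. Osm and Il17a were well above background on the feeding array only, and their differences were set to 0. Over the ligands well above background on both arrays the median was -0.14. Of the 23 receptors and signal transducers, 0 were higher and 2 lower by 2-fold or more. Il1r1, the interleukin-1 receptor, had a signal of 3770 upon fasting and 1262 upon feeding, which was 2.90-fold lower. Il6ra, the interleukin-6 receptor, had a signal of 759 and 304, which was 2.27-fold lower, though under 2-fold with normexp. Il6st, the signalling partner of Il6ra, had a difference of -0.17 on the log2 scale, and 0.02 when scaled by the median. Nr3c1, the glucocorticoid receptor, had a difference of 0.48 by its brighter probe and -0.43 by its other probe.

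Among the 23 measured transcription factors, 1 was higher and 4 were lower by 2-fold or more. Cebpd and Cebpb, the C/EBP factors known to be induced in the acute phase, were both dimmer on the feeding array. The signal of Cebpd was 6921 upon fasting and 1527 upon feeding, 4.41-fold lower, and that of Cebpb was 39970 and 15136, 2.58-fold lower. The immediate early genes Fos and Jun were 4.15-fold and 2.08-fold lower, Jun by less than 2-fold with normexp. Foxa3, a liver transcription factor, was 2.53-fold higher. Stat3, which carries the interleukin-6 signal to the nucleus, had a difference of -0.67 on the log2 scale, and Hnf4a, a liver transcription factor, of -0.43. Of the 23 transcription factors, 9 were higher and 14 lower upon feeding by any amount. Saa1 and Saa2 were higher on the array on which Cebpb, Cebpd, Il1r1 and Il6ra were lower and Foxa3 was higher. A link between these genes was not tested.

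The inhibitors and feedback genes had 1 of 19 higher and 3 lower by 2-fold or more. Dusp1 and Tsc22d3, which glucocorticoids are known to induce and which dampen inflammatory signalling, were 4.27-fold and 3.29-fold lower upon feeding. Il1rn, the interleukin-1 receptor antagonist, was 2.58-fold lower (under 2-fold with normexp), and Bcl3, a nuclear partner of NF-kB, was 2.98-fold higher. Socs3, which STAT3 induces and which shuts its signal off, had a signal of 1846 upon fasting and 919 upon feeding, a difference of -0.94 on the log2 scale that did not reach 2-fold.

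**Figure D5:**
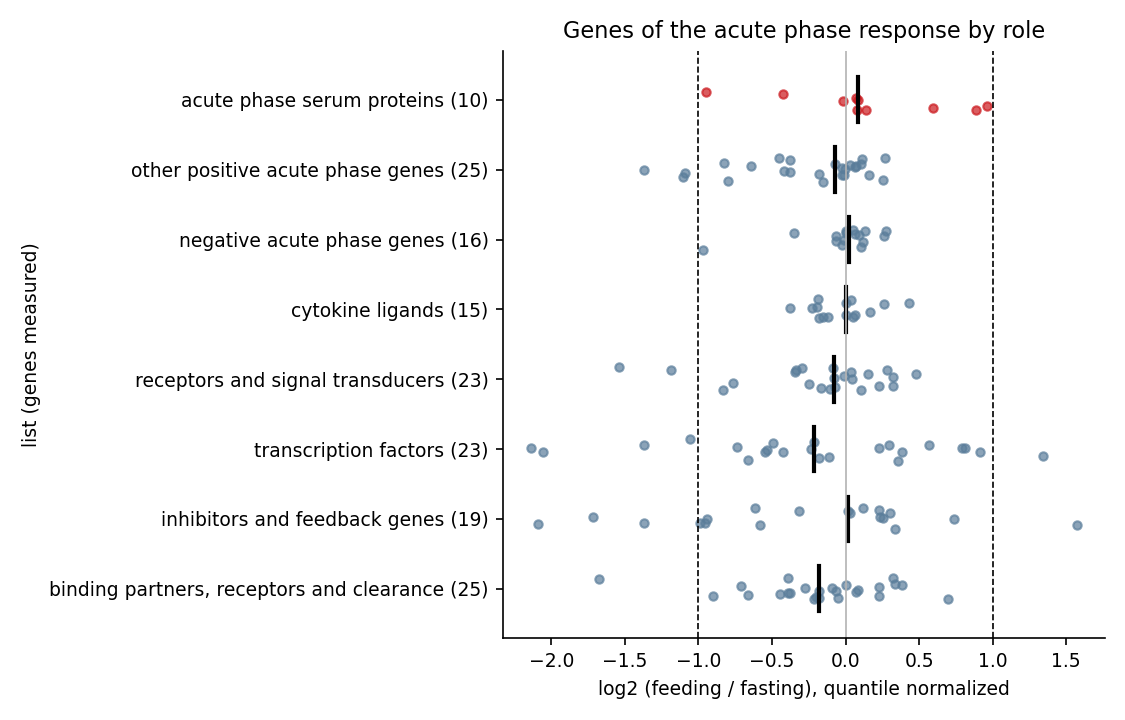
Log2 ratio of feeding to fasting (quantile normalized) of the measured genes of each list, 1 point per gene, with the median of the list as a black bar and the 2-fold threshold as dashed lines. The points past the dashed lines are mostly on the left, among the transcription factors, the inhibitors and feedback genes, the receptors and the other positive acute phase genes, and none belongs to the 10 serum protein genes. Over all measured genes, too, more were lower (4.62%) than higher (3.27%) by 2-fold or more.

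Other secreted proteins give a comparison for the 10 genes. Of 25 measured genes among 28 other positive acute phase genes, 0 were higher and 3 lower by 2-fold or more, with a median of -0.07 that became 0.10 when the arrays were scaled by their medians. The 3 were Il1rn, Vnn1 and Mt2; Vnn1, an enzyme that releases pantothenic acid, was 2.15-fold lower, and Mt2, a metal-binding protein, was 2.13-fold lower. Scaled by the median, Vnn1 and Mt2 had differences of -0.92 and -0.93 and were no longer past 2-fold, and with normexp Il1rn and Vnn1 were not. Lbp, which carries bacterial lipopolysaccharide, had a difference of -0.42. None of the 16 negative acute phase genes, whose output is known to fall in inflammation, was past 2-fold, and their median was 0.03. Alb, which encodes albumin, had a signal of 159091 upon fasting and 141790 upon feeding, and its difference was -0.07, or 0.07 when scaled by the median.

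Of the 25 measured genes among 28 binding partners, receptors and clearance genes of the serum proteins, 0 were higher and 1 was lower by 2-fold or more. C1qa, a complement subunit to which pentraxins bind, had a signal of 1546 upon fasting and 448 upon feeding, 3.19-fold lower. Cd163, the haemoglobin receptor of macrophages, did not reach the level called well above background. Lrp1, which takes up hemopexin with haem, had a difference of -0.71, and Slc22a17, a receptor of lipocalin-2, of 0.34. Hmox1, which breaks down haem, had a difference of 0.23 by its brighter probe and -0.59 by its other probe.

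The liver label was checked against its markers. All 10 hepatocyte markers were well above background, 0 of 10 were past 2-fold, and their median difference was -0.07, or 0.07 when scaled by the median. Upon feeding 9 of the 10 were lower (3 when scaled by the median), with sums of 819217 upon fasting and 673896 upon feeding. The enzyme Tat, named after its values were seen, had a difference of -0.97, and of -1.02 with normexp. Of 10 neutrophil markers measured, 9 were higher upon feeding (10 when scaled by the median) and 1, Ltf, was past 2-fold as a lower bound (at least 2.10-fold), with a median of 0.62 and a summed signal of 3616 upon fasting and 4220 upon feeding. Ltf and Ngp were well above background on the feeding array only, and their differences are lower bounds. Over neutrophil markers well above background on both arrays, 0 were past 2-fold and the median was 0.57. With normexp the median of the neutrophil markers was 0.17 and 0 were past 2-fold, and Ltf was also under 2-fold when scaled by the 75th percentile. Of 9 Kupffer cell markers, 7 were lower (5 when scaled by the median), with a median of -0.22 and sums of 110038 and 96188, and all 7 endothelial markers were lower (6 when scaled by the median), with a median of -0.40 and sums of 41935 and 31454. Pecam1 was 2.05-fold lower, or -0.98 on the log2 scale when scaled by the median, and under 2-fold with normexp. The part of these cells in the values of Lcn2, the serum amyloid A genes and the receptors was not tested. Of 6 adipocyte markers 4 were measured, and the defining markers Adipoq and Lep were not among them. Single genes past 2-fold in the other marker lists were Ms4a1 (2.31-fold higher) for lymphocytes, Sox9 (4.31-fold higher) for cholangiocytes and Prss2 (at least 2.54-fold higher) for pancreas, and 0 were in the lists of red blood cells and of stellate cells and fibroblasts. With normexp Ms4a1 and Prss2 were under 2-fold and Sox9 was not, and with scaling by the 75th percentile 1 of the stellate and fibroblast markers, Reln, also named after its values were seen, was past 2-fold.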

How the data were processed

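The authors labelled pooled total RNA of each group with Cy3, hybridised it to the Agilent Whole Mouse Genome array (4x44K) and deposited the output of Feature Extraction 11.0.1.1; the deposited values are intensities per spot, not normalized between arrays. The arrays shared a slide and a scan. On them, 63.1% of the transcript spots upon fasting and 72.3% upon feeding were well above background. The series value table that the authors deposited equals the local background intensity in 44397 of 44397 spots and was not used.

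From the processed signals, control and outlier spots were left out, log2 signals were averaged per probe, and probes were quantile normalized, as in the study's methods. Of 39402 probes, 27218 were named through RefSeq transcripts, and a gene was represented by its brightest probe. Differences of 1831 genes that only 1 array measured well above background (none of the 10) are lower bounds. The members, the lists and the rule for named genes were chosen with earlier results of these data known: all 10 genes, genes past 2-fold of each list (at most 6), and a fixed set of regulators, of which 1 is not reported here. The number of arrays limits the precision. The procedure was tested on simulated data and recovered the changes past 2-fold made there, except at the extreme ends of the signal range. At those ends quantile normalization can hide one. Whether it places differences near 2-fold, such as those of Saa1, Saa2 and Saa4, on the right side of the threshold was not tested. The simulation used only genes well above background on both arrays, with noise smaller than the spread of replicate spots. Recovery at the noise of these arrays was therefore not tested either. Alternatives were other scalings, normexp (offset 50, limma 3.58.1 in R 4.3.3), other filters, probe rules and thresholds. Upstream sequences were aligned with Biopython 1.88. Python was 3.11.15.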

Additional observations from a re-analysis of the deposited data

How the results depend on the processing

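No paired analysis was possible because there was 1 array per group. Signals over background limit the dim cytokine and marker genes. Among the 10, the dimmest, Apcs, went from 0.59 to 0.49 with normexp. The alternative that takes values from the series table was not run, since that table holds the local background. The spread between mice was not measured. The cause of the following moves was not tested, except that a lower threshold calls more genes by construction.

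Of the 10 genes, 2 were past 2-fold when scaled by the median, 1 when scaled by the 75th percentile (1360 and 1309 genes over the whole array), and 4 at 1.5-fold; their median was 0.29 when scaled by the median. Over the whole array 527 genes were past 2-fold with normexp and 2021 with no filter on dim probes, 3447 at 1.5-fold and 469 at 3-fold, against 1291. Scaled by the median, 1 of the other positive acute phase genes was past 2-fold and their median was 0.10, that of the negative acute phase genes was 0.20 and that of the binding partners, receptors and clearance genes 0.015. Scaled by the 75th percentile, the median of the transcription factors was -0.32. With normexp 1 other positive acute phase gene, 1 negative acute phase gene and 1 receptor or signal transducer were past 2-fold. With no filter on dim probes, 2 binding partners, receptors and clearance genes were. The median of the cytokine ligands was -0.14 over probes well above background on both arrays and -0.12 with the measured difference in place of the bound. At 1.5-fold, 6 other positive and 1 negative acute phase genes, 4 receptors and signal transducers, 10 transcription factors, 9 inhibitors and feedback genes and 5 binding partners were called; at 3-fold, 0 other positive acute phase genes, 0 receptors, 2 transcription factors and 2 inhibitors and feedback genes were. For the marker lists, 140 counts and medians held and 40 moved. For single genes among the 10, 49 values under the alternatives moved by less than the spread of replicate spots, 11 moved by more, and of the 10 only Hp turned its sign, when scaled by the median. The 49 include values that could not move, those under the filter on both arrays and with measured differences in place of bounds.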
